A study of Mus musculus with 6 samples.

Results

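The genes described here encode the subunits of oxidative phosphorylation, measured by RNA sequencing in mouse CD4 T cells that carried either a Blimp-1 retrovirus or its empty vector. They were chosen by name alone: every symbol that begins with Ndufa, Ndufb, Ndufc, Ndufs, Ndufv, Uqcr, Cox4 to Cox8 or Atp5, together with Sdha, Sdhb, Sdhc, Sdhd and Cyc1. This found 91 of the 21982 genes in the deposited table. Of these, 84 are structural subunits, 36 of complex I, 4 of complex II, 9 of complex III, 20 of complex IV and 15 of complex V. The other 7 share a prefix but are not subunits: Ndufaf1 to Ndufaf4 are complex I assembly factors, and Atp5s, Atp5sl and Cox4nb are listed by RefSeq as Dmac2l, Dmac2 and Emc8.

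Naive CD4 T cells were sorted from wild-type C57/BL6 mice, stimulated through CD3 and CD28 for 36 hours with IL-4 and IFN-gamma neutralised, and transduced. In the empty vector group the virus was MigR1, which carries the marker GFP, and in the Blimp-1 group MigR1 also carried the Blimp-1 cDNA. GFP-positive cells, labelled Th0 activated T cells, were collected 2 days later (another protocol text gives 3 days of activation), with 3 libraries per vector described as independent biological replicates. Both groups were therefore activated, virus-infected and sorted, and Blimp-1 came from a viral vector in addition to the cells' own gene.

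Oxidative phosphorylation takes place in the inner mitochondrial membrane. Complexes I and II pass electrons from NADH and succinate to coenzyme Q, complex III hands them to cytochrome c, and complex IV delivers them to oxygen. Complexes I, III and IV pump protons, and complex V, the ATP synthase, uses the return flow to make ATP. T cells that leave the resting state enlarge this machinery along with glycolysis. Blimp-1, encoded by Prdm1, is a transcriptional repressor of activated and differentiated lymphocytes. A small part of the subunits is encoded in mitochondrial DNA. None of those 13 genes was found by its symbol in the deposited table, so they could not be described.

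Values are FPKM, which scale reads to transcript length and to library size, so that levels can be compared between genes. They are shares of each library's RNA, and in bulk samples fewer cells of a type and less RNA per cell cannot be told apart. Differences are of log2(FPKM + 1), Blimp-1 minus empty vector. They were tested with limma over the 10772 genes that reached 1 FPKM in at least 3 of 6 libraries, with a call at an adjusted p below 0.05. The p-values measure the spread between 3 and 3 libraries. Values are listed in the order of replicates 1, 2 and 3, empty vector first. Estimated depth ranged from 17.1 to 38.4 M reads for empty vector libraries and from 33.6 to 46.1 M for Blimp-1 libraries. Prdm1, measured from 0.996 to 2.03 FPKM in the former, reached 9.45 to 12.8 FPKM in the latter. Empty vector replicate 3 stood apart on the first principal component, at 33.3 against -22.7 to 12.4 for the others. The 6 T cell markers Cd4, Cd3d, Cd3e, Cd3g, Cd28 and Lck summed to 1638 to 1960 FPKM per library, of which Cd4 itself was 217 to 335 FPKM. The markers of B cells, CD8 T cells, myeloid, dendritic and erythroid cells summed to at most 5.84 FPKM per type. Only 1 of 2 CD8 T cell, 4 of 6 myeloid and 2 of 4 erythroid markers were found by symbol. Cd8b1, Lyz2, Hbb-b1 and Hba-a1 were among those missing. The NK cell markers summed to 3.34 to 35.3 FPKM, almost all of it Klrd1 and Klrk1.

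The regulatory sequence of these genes is shown first because respiratory chain promoters are known for binding sites of NRF1 and of the ETS factor GABP. RefSeq (GRCm38.p6) gave 80 windows of 250 bases before the start for 74 of the 91 genes. Each was searched on both strands for 5 motifs, none of which contains another: the NRF1 palindrome (the motif in capitals nearest the 5′ end of the Cox6a1 window below), the ETS core (CCGGAAG), YY1 (AAGATGGCG), SP1 (GGGCGG) and a Blimp-1 core (GTGAAAG). The ETS core was in 16.3% of the 80 windows and in 6.91% of all 32851 windows in the table, which include those of noncoding genes. The NRF1 motif was in 6.25% against 0.782%, in the genes Ndufa11, Cox6a1, Atp5g2, Atp5i and Ndufaf4. SP1 letters were in 37.5% against 32.7% and YY1 letters in 2.5% against 0.606%. The Blimp-1 core was in 2.5% of the windows against 3.57% of all windows, in Atp5i and in Cox7b2. A match describes letters only and shows no binding. Below, capitals mark any of the 5 motifs, 5′ to 3′ on the gene's strand. Uqcr11 and Cox6b2 are shown as the genes with the largest negative and positive differences, and Cox6a1 and Atp5i, chosen after the search, because they hold several of the motifs.
Uqcr11, chr10:80406822-80407071, minus strand: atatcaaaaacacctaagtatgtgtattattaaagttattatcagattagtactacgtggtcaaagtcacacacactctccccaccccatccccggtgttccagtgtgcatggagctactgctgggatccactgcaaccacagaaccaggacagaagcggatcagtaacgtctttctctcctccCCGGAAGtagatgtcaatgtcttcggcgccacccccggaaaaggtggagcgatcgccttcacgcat
Cox6b2, chr7:4753095-4753344, minus strand: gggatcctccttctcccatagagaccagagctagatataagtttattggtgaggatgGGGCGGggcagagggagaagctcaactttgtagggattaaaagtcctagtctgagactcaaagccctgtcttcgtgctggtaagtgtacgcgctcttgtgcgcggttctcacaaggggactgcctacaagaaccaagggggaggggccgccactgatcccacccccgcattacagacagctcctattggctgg
Cox6a1, chr5:115348959-115349208, minus strand: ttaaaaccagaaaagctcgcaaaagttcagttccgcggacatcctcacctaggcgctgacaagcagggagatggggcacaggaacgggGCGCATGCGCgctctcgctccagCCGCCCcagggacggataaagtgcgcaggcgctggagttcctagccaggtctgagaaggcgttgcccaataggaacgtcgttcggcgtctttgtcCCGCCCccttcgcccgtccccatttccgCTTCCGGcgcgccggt
Atp5i, chr5:108434400-108434649, minus strand: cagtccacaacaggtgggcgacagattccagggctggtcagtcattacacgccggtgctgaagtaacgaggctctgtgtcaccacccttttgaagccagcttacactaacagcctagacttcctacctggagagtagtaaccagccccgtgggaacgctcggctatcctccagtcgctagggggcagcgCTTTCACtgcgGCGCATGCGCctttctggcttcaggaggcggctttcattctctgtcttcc
The Uqcr11 window holds 1 ETS core and the Cox6b2 window 1 SP1 match. In Cox6a1 the NRF1 motif, the ETS core and SP1 letters occur together, and in Atp5i the Blimp-1 core lies close to the NRF1 motif.

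Most subunit genes were abundant. Means over the 6 libraries reached 100 FPKM or more for 36 of the 91 genes, and the median over all 91 was 69.4 FPKM, against 11.5 FPKM over all tested genes. By complex, the median level was 58.6 FPKM for complex I, 63.2 for complex II, 90.4 for complex III, 104 for complex IV and 242 for complex V. Filtering left 86 genes to test; the other 5, Cox6a2, Cox7b2, Cox8b, Cox8c and Ndufa4l2, were at 0 or below 0.2 FPKM in each library. Among the tested genes 9 had means below 10 FPKM, 5 of them genes that share only a prefix with the subunits (Ndufaf1, Ndufaf2, Ndufaf4, Atp5s and Cox4nb) and the others Ndufa11, Cox4i2, Cox6b2 and Cox7a1. The highest means belonged to Uqcrh of complex III (named UQCRHL in the table) at 522 FPKM, Atp5g2 at 439 FPKM and Cox4i1 at 420 FPKM.

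**Figure D1:**
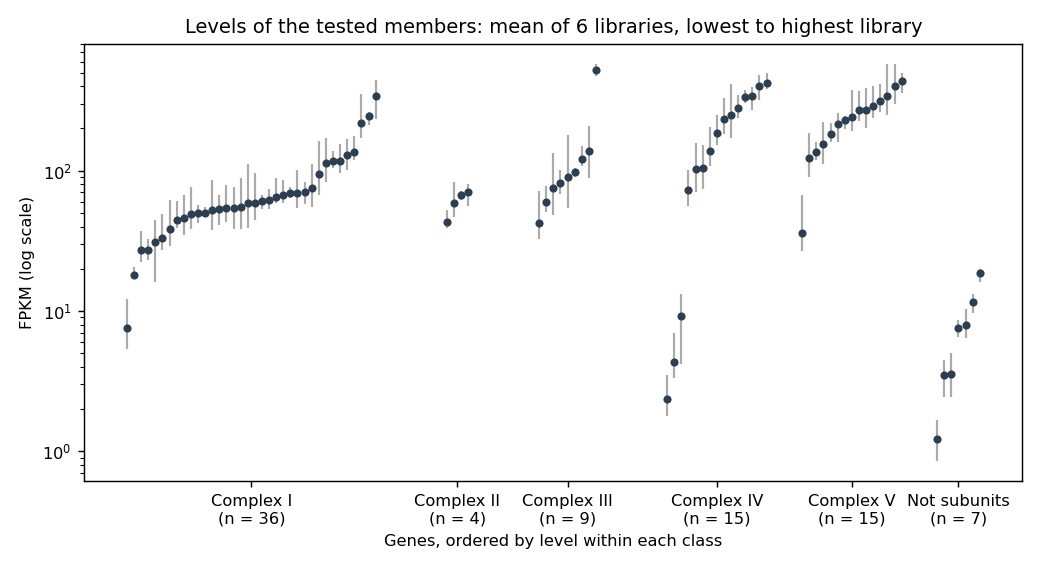
Level of each of the 86 tested genes by complex, in FPKM on a log axis; points are means of 6 libraries and lines run from the lowest to the highest library. Complex V genes sit highest, with a median of 242 FPKM, and 3 tissue isoforms of complex IV sit below 10 FPKM.

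The tested genes were mostly lower with Blimp-1 than in the empty vector library of the same replicate number, but limma called no single gene. This held for 75, 68 and 75 of 86 in replicates 1, 2 and 3. Among the 79 structural subunits tested it held for 71, 64 and 71. The median log2 difference was -0.22 over the 86 genes and -0.01 over all tested genes. In replicates 1, 2 and 3 the medians of the 86 genes were -0.16, -0.12 and -0.40, against 0.01, 0.00 and -0.01 for all tested genes. Lower values with Blimp-1 in 3 of 3 pairs were found for 61 of 86 genes (70.9%), against 22.8% of all tested genes. Higher values in 3 of 3 pairs were found for 5 genes, Uqcrc2, Uqcrh, Cox6b2, Atp5g2 and Atp5s (5.81%), against 23% of all tested genes. Of the 61 genes, 56 had their largest difference in pair 3.

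limma without a replicate term called 0 of the 86 genes as higher and 0 as lower (background 0% in each direction), and their smallest adjusted p was 0.997. At an unadjusted p below 0.05 there were 2 genes, Ndufa1 lower (background 0.446%) and Cox6b2 higher (background 0.659%). With the replicate number as a block limma again called none (background 0.00928% in each direction; smallest adjusted p = 0.150). With that block 44 genes were lower and 2 higher at an unadjusted p below 0.05, against 10.6% and 9.83% of all tested genes. Adjustment over 10772 genes did not leave any of them past the threshold. Prdm1, the gene carried by the vector, had a log2 difference of 2.26. Its limma adjusted p was 0.056 without the block, so that fit did not call it either, and 0.0062 with the block.

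**Figure D2:**
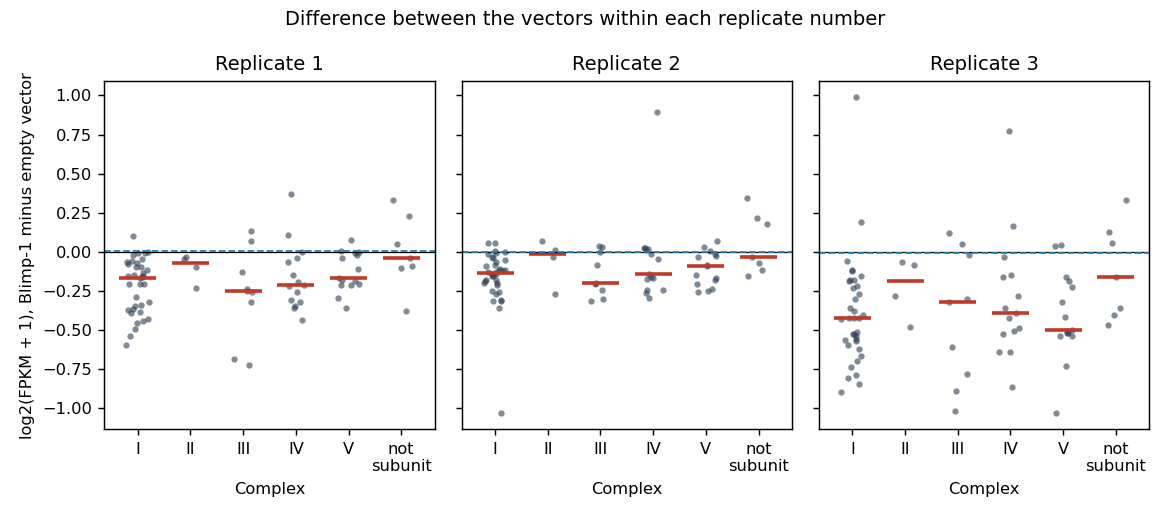
Difference in log2(FPKM + 1) between Blimp-1 and empty vector within each replicate number; each point is a tested gene, red bars are medians per complex and the dashed blue line is the median of all tested genes. Medians of complexes I to V lie below 0 in each panel and furthest below in replicate 3.

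The replicate 3 libraries, above all that of the empty vector, were high for the members. In empty vector replicate 3, 71 of the 86 genes had their highest value of all 6 libraries (82.6%), against 29.1% of all tested genes. It was above both other empty vector libraries for 74 (86.0%), against 37.9% of all tested genes. The median ratio of that library to the mean of the other 2 empty vector libraries was 1.40 for the 86 genes and 0.998 for all tested genes. Blimp-1 replicate 3 was also above the mean of the other Blimp-1 libraries, by a median of 0.23 on the log2 scale. The median coefficient of variation of the 86 genes was 22.7% among empty vector libraries and 13.0% among Blimp-1 libraries, against 17.0% and 14.6% for all tested genes. Without both replicate 3 libraries the median difference was -0.14, against -0.22 with all libraries. Without empty vector replicate 3 alone, which keeps its Blimp-1 partner, it was -0.07, with 65 of 86 genes below 0. Without empty vector replicate 2 it was -0.33, with 77 below 0.

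**Figure D3:**
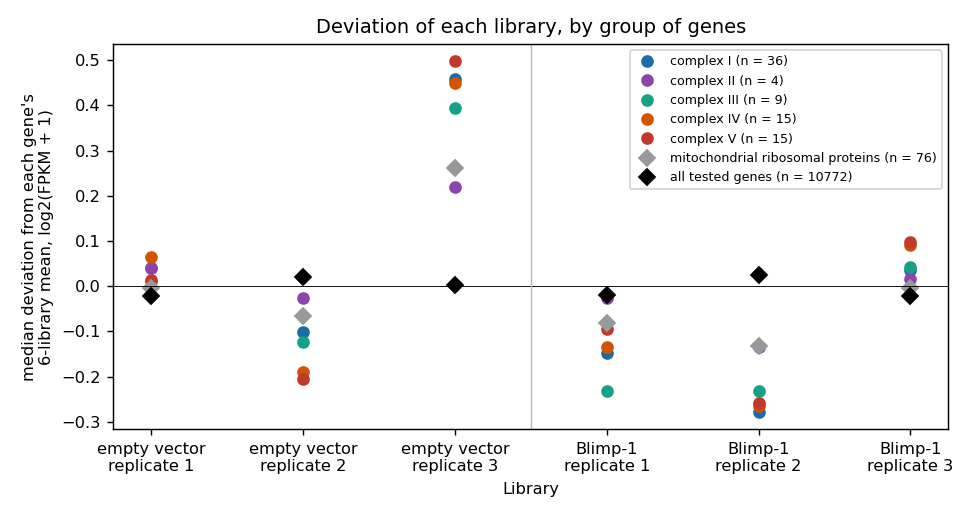
Median deviation of each library from the 6-library mean of each gene, in log2(FPKM + 1), for the 5 complexes (circles), mitochondrial ribosomal protein genes and all tested genes (diamonds). In empty vector replicate 3 the complexes lie between 0.22 and 0.50, mitochondrial ribosomal protein genes at 0.26, above complex II, and all tested genes at 0.00.

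With both replicate 3 libraries left out and the replicate block in the model, limma called 25 of the 86 genes as lower (background 5.9%) and 2 as higher (background 4.93%). That fit has 4 libraries and 1 residual degree of freedom, and its median over the 86 genes was -0.14. By complex the medians there were -0.16, -0.04, -0.16, -0.19 and -0.11 for complexes I to V. The 25 comprised 11 genes of complex I, 1 of complex II, 4 of complex III, 5 of complex IV and 4 of complex V. With pair 1 or pair 2 left out in the same way, limma called none of the 86. Those fits called only 3 and 4 of all 10772 tested genes, against 1167 without pair 3. Their medians over the 86 genes were -0.25 and -0.27. The calls without pair 3 rest on replicates 1 and 2 only. Ndufs5, with the largest negative difference of the 25 (-0.73), was higher with Blimp-1 in the omitted pair 3, by 0.99. The rest of the 25 were lower in pair 3 as well. Of the 2 higher genes, Cox6b2 (0.63) was also higher in pair 3, by 0.77. Ndufaf2 (0.34) was lower there, by -0.16.

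Complex I takes electrons from NADH and is the largest of the complexes. Its summed FPKM was 2966, 2547 and 3823 in empty vector libraries and 2608, 2313 and 2905 with Blimp-1 in replicates 1 to 3. The pairs differed by -12.1%, -9.19% and -24.0%, and the Blimp-1 sums of replicates 1 and 3 lay within the range of the empty vector sums. Of its 36 genes, 35 had a difference below 0, 30 were lower in 3 of 3 pairs and none was higher in 3 of 3.

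Ndufa1, an accessory subunit of the membrane arm, had the largest negative difference in complex I. It was at 60.8, 49.3 and 89.4 FPKM in empty vector libraries and at 41.5, 38.2 and 49.4 FPKM with Blimp-1. Each Blimp-1 library was below its numbered partner, yet the groups overlapped by a narrow margin between 49.3 and 49.4 FPKM. Group means were 66.5 ± 20.6 and 43.0 ± 5.76 FPKM (± SD of 3 libraries each). The log2 difference was -0.58 (SE 0.22 and limma adjusted p = 0.997, or 0.10 and 0.150 with the block). Ndufv3, a small subunit near the NADH site, was the most abundant gene of the complex at 396, 256 and 445 FPKM against 371, 235 and 346 FPKM. Most of its value came from 1 of 2 transcripts, which alone had 222 to 413 FPKM with the empty vector. Ndufa6, of the LYR protein family, was the one gene of the complex with a positive mean difference, 0.02. It was at 262, 252 and 213 FPKM against 260, 231 and 244 FPKM, and the groups overlapped.

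Ndufs8, a core iron-sulfur subunit, shows how names bear on a value. Under the deposited symbol only 1 transcript was listed, at 0.967 to 3.08 FPKM, while another of its transcripts had no symbol and 33.5 to 64.3 FPKM. With all its transcripts Ndufs8 was at 45.5, 43.1 and 67.4 FPKM against 34.9, 35.9 and 50.1 FPKM, lower with Blimp-1 in 3 of 3 pairs. Ndufs5, an accessory subunit, had pairs of opposite sign. It was at 44.4, 40.9 and 16.1 FPKM in empty vector libraries and at 32.7, 19.5 and 32.9 FPKM with Blimp-1, so that its pairs differed by -0.43, -1.03 and 0.99. A transcript of its pseudogene, listed as BC002163, was at 15.6, 16.9 and 26.2 FPKM against 13.5, 12.8 and 15.3 FPKM, and reads could have been split between both. The sums of both were 60.0, 57.8 and 42.3 FPKM against 46.3, 32.3 and 48.2 FPKM, which still differ in sign between pairs.

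Complex II, the succinate dehydrogenase that also serves the citric acid cycle, had a median difference of -0.08, the nearest to 0 of the 5 complexes with all libraries. Without empty vector replicate 3 complex V was nearer, at -0.042 against -0.049. Sdha, the flavoprotein, was at 72.07, 68.26 and 64.27 FPKM in empty vector libraries and 70.58, 66.72 and 61.47 FPKM with Blimp-1. Its pairs differed by -2.07%, -2.27% and -4.36%, and the groups overlapped. Sdhb, the iron-sulfur protein, was at 54.9, 60.8 and 83.4 FPKM against 46.5, 50.4 and 59.5 FPKM. It was lower in 3 of 3 pairs. The log2 difference was -0.33 (SE 0.18 and limma adjusted p = 0.997, or 0.075 and 0.152 with the block). The membrane anchors differed little: Sdhc was at 42.2, 40.7 and 52.4 FPKM against 39.4, 41.0 and 42.8 FPKM. Sdhd was at 80.0, 56.4 and 78.4 FPKM against 77.6, 59.2 and 73.9 FPKM, and both had groups that overlapped and pairs of unlike sign. The 4 genes of 1 enzyme thus had differences from -0.33 to -0.02, and how they differ from each other was not tested.

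Complex III, the cytochrome bc1 complex, held both the largest negative differences and genes that were higher. Uqcr11, a small supernumerary subunit, was at 88.1, 73.9 and 179 FPKM in empty vector libraries and 54.4, 59.2 and 87.8 FPKM with Blimp-1. All pairs were lower, but the groups overlapped through the replicate 3 library of Blimp-1. Group means were 114 ± 56.8 and 67.1 ± 18.1 FPKM (± SD of 3 libraries each). The mean ratio was 0.591. The log2 difference was -0.67 (SE 0.34 and limma adjusted p = 0.997, or 0.13 and 0.150 with the block). Uqcrq, another small subunit, was at 80.6, 63.2 and 133 FPKM against 48.5, 51.0 and 71.6 FPKM. Its log2 difference was -0.64, and again only the replicate 3 value overlapped the other group.

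Uqcrc2, a large core protein of complex III, went the other way. It was at 95.2, 96.2 and 90.7 FPKM in empty vector libraries and 104, 98.4 and 98.8 FPKM with Blimp-1. The groups did not overlap, which was so in the higher direction for 1 of the 86 genes, against 2.32% of all tested genes. Group means were 94.0 ± 2.91 and 101 ± 3.36 FPKM (± SD of 3 libraries each). The log2 difference was 0.10 (SE 0.11 and limma adjusted p = 0.997, or 0.060 and 0.403 with the block). Uqcrc1, its partner core protein, was at 60.3, 58.5 and 78.4 FPKM against 50.5, 50.5 and 62.6 FPKM, lower in 3 of 3 pairs. Uqcrh, the hinge protein, was at 470, 513 and 553 FPKM against 494, 526 and 574 FPKM, higher by 0.04 to 0.07 in each pair. RefSeq names 2 pseudogenes of Uqcrh, and 10 of the 91 genes have copies that carry their name, to which their reads could have been assigned. Copies under other names were not counted. The redox subunits Cyc1 and Uqcrfs1, cytochrome c1 and the Rieske protein, had log2 differences of -0.37 and -0.11.

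**Figure D4:**
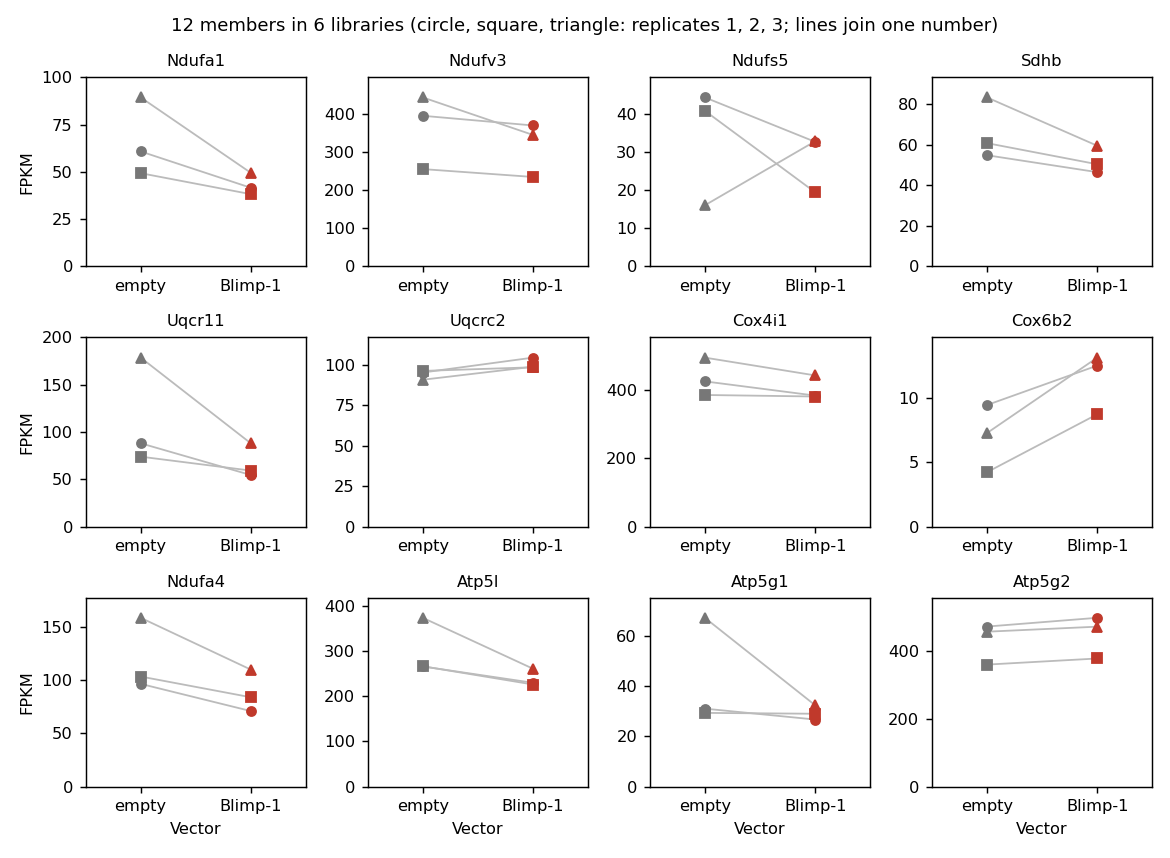
FPKM of 12 genes in the 6 libraries, with the empty vector in grey and Blimp-1 in red; lines join libraries of one replicate number. Ndufa1, Uqcr11, Ndufa4 and Atp5l were lower in each pair, Uqcrc2, Cox6b2 and Atp5g2 were higher, and Ndufs5 differed in sign between pairs.

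Complex IV, cytochrome c oxidase, has isoforms that are known to differ between tissues, and the general ones were the more abundant here. Cox4i1 was at 426, 386 and 496 FPKM in empty vector libraries and 384, 382 and 444 FPKM with Blimp-1. Cox4i2, the isoform known from lung and low oxygen, was at 1.79 to 3.49 FPKM. Cox6a1 was at 254, 193 and 415 FPKM against 205, 171 and 266 FPKM, and its heart and muscle counterpart Cox6a2 was at 0 in 5 of 6 libraries. Cox7a2 was at 104, 87.6 and 152 FPKM against 90.5, 73.7 and 118 FPKM, and the muscle form Cox7a1 at 3.36 to 6.94 FPKM. Cox7a2l, which helps join complexes III and IV into supercomplexes, was at 303 to 376 FPKM with a log2 difference of -0.01. Cox8a was at 270 to 396 FPKM, with Cox8b at 0 to 0.151 FPKM and Cox8c at 0 in each library. Cox7b was at 76.2, 66.0 and 101 FPKM against 65.4, 55.7 and 72.0 FPKM, with Cox7b2 listed at 0 throughout.

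Cox6b2, known as the testis isoform, had the largest positive difference of all members. It was at 9.45, 4.22 and 7.27 FPKM in empty vector libraries and 12.5, 8.73 and 13.1 FPKM with Blimp-1, higher in 3 of 3 pairs with groups that overlapped. Group means were 6.98 ± 2.62 and 11.5 ± 2.38 FPKM (± SD of 3 libraries each). The log2 difference was 0.68 (SE 0.27 and limma adjusted p = 0.997, or 0.11 and 0.150 with the block). Its transcripts behaved unlike each other. The first was at 9.45, 4.22 and 6.10 FPKM against 10.5, 3.66 and 7.91 FPKM, and the second at 0.00019, 0.00485 and 1.17 FPKM against 2.04, 5.07 and 5.23 FPKM. With the more abundant transcript alone the log2 difference was 0.10. Its general counterpart Cox6b1 was at 289, 267 and 349 FPKM against 249, 238 and 286 FPKM, lower in 3 of 3 pairs.

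Ndufa4, named for complex I but now counted as a subunit of complex IV, had the largest negative difference of this complex. It was at 96.4, 103 and 158 FPKM in empty vector libraries and 70.9, 83.8 and 110 FPKM with Blimp-1. Its log2 difference was -0.42 (SE 0.24 and limma adjusted p = 0.997, or 0.069 and 0.150 with the block). Only the Blimp-1 library of replicate 3 reached into the empty vector range. Cox7c and Gm10012 share 1 symbol for a pair of transcripts in the deposited table, and these were summed here, as for other genes, to 447, 320 and 418 FPKM against 483, 326 and 408 FPKM. The Cox7c mRNA alone was at 362, 254 and 336 FPKM against 394, 261 and 319 FPKM, higher with Blimp-1 in pairs 1 and 2 and lower in pair 3, as was the sum. Over complex IV, 13 of the 15 tested genes had a difference below 0 and 9 were lower in 3 of 3 pairs.

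Complex V was the most abundant, with summed FPKM of 3680, 3138 and 4913 in empty vector libraries and 3438, 2929 and 3751 with Blimp-1. The pairs differed by -6.57%, -6.66% and -23.7%. In the catalytic F1 head, Atp5a1 was at 183, 171 and 220 FPKM against 170, 161 and 188 FPKM, and Atp5b at 289, 242 and 402 FPKM against 280, 238 and 283 FPKM. Atp5c1, Atp5d and Atp5e had pairs of unlike sign. For Atp5b and Atp5e the first 2 pairs were nearly equal, with log2 differences of -0.04 and -0.03 and of 0.00 and 0.01, against -0.50 and -0.54 in pair 3.

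Atp5l, subunit g of the membrane part, was the one structural subunit whose Blimp-1 libraries all lay below the empty vector libraries. It was at 265.5, 266.0 and 373.0 FPKM against 229.5, 225.7 and 260.4 FPKM. Group means were 301 ± 61.9 and 239 ± 19.1 FPKM (± SD of 3 libraries each). The log2 difference was -0.32 (SE 0.17 and limma adjusted p = 0.997, or 0.079 and 0.159 with the block). With Cox4nb it made 2 of the 86 genes without overlap in the lower direction (2.33%), near the 2.35% of all tested genes. Other membrane and stalk subunits were alike in direction: Atp5i, Atp5j, Atp5j2, Atp5h and Atp5o had log2 differences of -0.39, -0.37, -0.32, -0.23 and -0.26.

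The rotor ring of complex V is built from subunit c, which Atp5g1, Atp5g2 and Atp5g3 encode as the same mature protein with different import sequences. Atp5g2 was the main source, at 471, 359 and 456 FPKM in empty vector libraries and 497, 377 and 471 FPKM with Blimp-1. It was higher in 3 of 3 pairs, by 0.05 to 0.08, with groups that overlapped. Atp5g3 was at 232, 196 and 374 FPKM against 200, 192 and 260 FPKM. Atp5g1 was at 31.0, 29.3 and 67.1 FPKM against 26.7, 29.0 and 32.3 FPKM, and its log2 difference of -0.42 came mostly with replicate 3 (-0.21, -0.02 and -1.03 in the pairs). Atp5g2 made up 64.2%, 61.5% and 50.9% of the summed FPKM of the 3 genes in empty vector libraries, and 68.7%, 63.1% and 61.7% with Blimp-1. Each pair showed a larger share with Blimp-1, with overlap between the groups.

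The 7 genes that share only a prefix had a median difference of -0.02. Cox4nb, a membrane protein insertion factor by its RefSeq name Emc8, was at 3.48, 3.75 and 5.06 FPKM against 2.45, 3.38 and 3.37 FPKM, with a log2 difference of -0.32. Atp5s was at 3.48, 2.44 and 3.35 FPKM against 4.26, 2.90 and 4.49 FPKM, higher in 3 of 3 pairs. Ndufaf2 was higher in pairs 1 and 2 and lower in pair 3. The limma adjusted p was 0.997 for each of these 3 genes, and 0.178, 0.179 and 0.437 in this order with the block.

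Usmg5 and 2010107E04Rik, known as ATP synthase subunits (Atp5md and Atp5mpl), were outside the name rule. Usmg5 was at 214, 166 and 260 FPKM against 194, 166 and 210 FPKM, and 2010107E04Rik at 220, 224 and 394 FPKM against 181, 192 and 291 FPKM. Both were lower with Blimp-1 in 3 of 3 pairs.

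Transcript length moved with the difference, in these genes and in general. The mRNAs of the 91 genes are short, with a median of 758 nt against 2808 nt for all tested genes, by later GENCODE M21 models. The longest model matched to a transcript was taken, so a length can exceed that of the mRNA measured. Atp5g1 was thus placed at 4715 nt, Ndufab1 at 3479 nt and Uqcrq at 1521 nt. Spearman's rho between length and log2 difference was 0.36 across the 86 genes and 0.33 across 10501 tested genes, which share the same 6 libraries. For transcripts under 600 nt the median difference was -0.32 in 25 members and -0.07 in 168 other genes. From 600 to under 900 nt it was -0.25 in 24 members and -0.08 in 419 other genes, and from 900 to under 1500 nt -0.15 in 17 and -0.08 in 1283. From 1500 to under 3000 nt the medians were -0.13 in 15 members and -0.03 in 3774 other genes, and from 3000 nt upwards -0.15 in 5 and 0.04 in 4771. The part of length in the difference was not tested beyond these values.

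**Figure D5:**
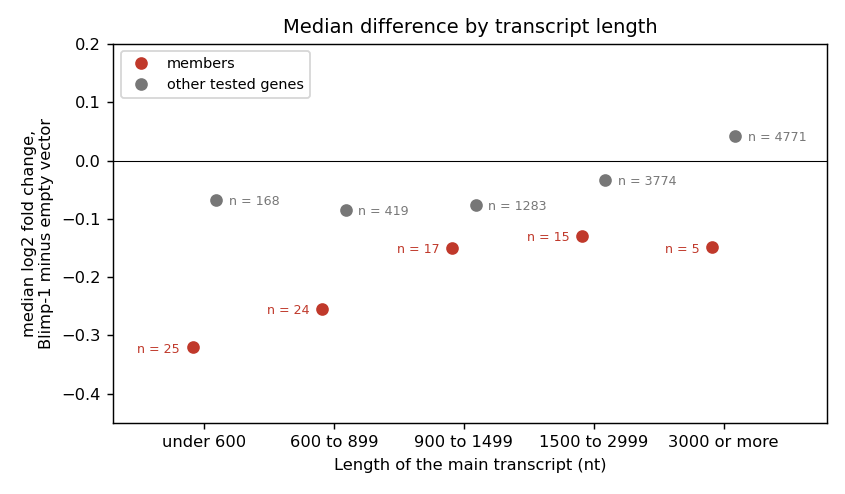
Median log2 difference by length of the longest GENCODE model matched to the main transcript, for members (red) and other tested genes (grey), with the number of genes beside each point. Members lie below other genes in each length class, and the gap is widest under 600 nt, at -0.32 against -0.07.

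Depth and the sum of the NK cell markers differed between the libraries as well. The replicate 3 library of the empty vector, where most members were highest, was the shallowest at 17.1 M reads. Replicate 1 of the empty vector was the next shallowest. The members' median deviation was 0.03, -0.12 and 0.43 in empty vector libraries and -0.13, -0.24 and 0.05 with Blimp-1. The NK cell markers Klrd1, Klrk1, Klrb1c and Ncr1 summed to 13.7, 28.4 and 3.34 FPKM in empty vector libraries and 16.1, 35.3 and 13.7 FPKM with Blimp-1. Their sum was lowest in that same replicate 3 library of the empty vector, and almost all of it was Klrd1 and Klrk1. Klrb1c was at 0.0222 FPKM or below and Ncr1 at 0 in each library. Whether NK cells themselves differed was not tested. The part of depth or of these markers in the result was not tested either.

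Other genes of mitochondrial energy supply were given by lists of known function, and limma called none of them with or without the block. Over all tested genes, 22.8% were lower and 23% higher in 3 of 3 pairs. The 16 genes of electron carriers, coenzyme Q synthesis and the ATP synthase inhibitor had a median of -0.09, with 3 lower and 2 higher in 3 of 3 pairs. In this list Coq7, a hydroxylase of coenzyme Q synthesis, was at 3.99, 3.31 and 8.77 FPKM against 2.23, 3.26 and 3.19 FPKM. Its groups did not overlap, which was so in the lower direction for 2.35% of all tested genes. Etfb, an electron transfer flavoprotein subunit, had a difference of -0.32, and Etfdh and Coq10b had 0.11 and 0.07. The 29 tested assembly factors outside the name rule had a median of -0.06, with 4 lower and 2 higher in 3 of 3 pairs. Sco2 and Ecsit, which serve the assembly of complexes IV and I, had -0.40 and -0.34, and Sdhaf1 and Surf1 had 0.27 and 0.10.

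Of the factors of mitochondrial biogenesis, 12 were tested, with a median of -0.03. Among them 3 were lower and 2 higher in 3 of 3 pairs, against 22.8% and 23% of all tested genes. Nrf1, the factor behind the NRF1 motif, was at 16.7, 17.2 and 16.8 FPKM against 15.9, 16.2 and 16.6 FPKM, a difference of -0.05. Its groups did not overlap, which was so in the lower direction for 2.35% of all tested genes. Nrf1, Esrra (-0.11) and Tfam (-0.07) were the genes lower in 3 of 3 pairs, and Gabpa and Yy1 the genes higher, with differences of 0.18 and 0.21. Tefm had -0.18, with pairs of unlike sign. Ppargc1a, which encodes the coactivator PGC-1alpha, was at 0.0223 FPKM or below. The 6 tested carriers and channels had a median of -0.05, with 3 lower and 0 higher in 3 of 3 pairs. Ucp2, an uncoupling protein family carrier, had -0.37 and Vdac3, an outer membrane channel, -0.20, while Slc25a3 and Slc25a4 had 0.05 and 0.01.

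Genes of both ribosomes were set beside the subunits, though neither set matched them in level. Median levels were 23.2 FPKM for mitochondrial and 1947 FPKM for cytosolic ribosomal protein genes, against 69.4 FPKM for the 91 genes. Median lengths were 1224.5, 817.5 and 758 nt in this order. The 76 tested mitochondrial ribosomal protein genes had median differences of -0.05, -0.06 and -0.30 in pairs 1 to 3, and 44.7% were lower in 3 of 3 pairs. For the 79 tested cytosolic ribosomal protein genes the medians were 0.01, -0.06 and 0.01, and 25.3% were lower in 3 of 3 pairs. The corresponding medians of the oxidative phosphorylation genes, -0.16, -0.12 and -0.40, were lower in each pair. These differences between groups of genes were not tested.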

How the data were processed

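Gene expression was measured by RNA-seq in 6 libraries, 3 per vector, made from 2 ug of total RNA with 50 single-end cycles, per the labels' protocols. The authors deposited 1 table of FPKM for 29868 RefSeq transcripts. Per the submitters' processing notes, CASAVA 1.8.2, Cufflinks 2.2 and Partek 6.6 and build mm9 were used; their order, the annotation release and strandedness are not given in sources used here. The unit was read from the values and from Cufflinks being named, since the table names none. A value at 0 can be a failed estimate.

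A note in brackets after a symbol was removed, which adds Sdha. Of 1138 transcripts with no symbol, 546 were named by accession from RefSeq (GRCm38.p6). Values were then summed per symbol, case ignored, and tested with limma 3.58.1 in R 4.3.3 with a variance trend, the vector as only term and Benjamini-Hochberg adjustment. The fit was tested on simulated data. Depth was taken from the lowest FPKM steps of genes with 1 transcript and GENCODE lengths; 1 FPKM over 1 kb was about 17.1 reads in the shallowest library.

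Libraries with the same replicate number deviated together from their group means (correlations 0.77, 0.80 and 0.66), so the numbers were taken to pair them; the replicate block is a second fit. Named were any called gene, the most abundant gene and the largest differences of each complex, genes without overlap between vectors, isoform groups, all of complex II, and up to 4 genes per list. Ndufs5, Ndufs8 and a few others were added after their values were seen. Alternatives were other pseudocounts, filters, scalings, the most abundant transcript alone, no variance trend and leaving out libraries or pairs. Genes and lists were chosen with earlier results of these data known, so no list was tested.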

Additional observations from a re-analysis of the deposited data

How the results depend on the processing

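The direction of the median difference over the members stayed negative under each of the 20 alternatives run, and the count of called members stayed at 0 in each direction except with the replicate block and without pair 3, where 25 were lower and 2 higher. The replicate block changed no call of a member when all 6 libraries were used (median -0.22). The block fit without pair 3 gave medians of -0.16, -0.038, -0.16, -0.19 and -0.11 for complexes I to V. With all libraries these were -0.22, -0.08, -0.26, -0.27 and -0.23. Over fits that left out 1 library, the median of all members ran from -0.33 to -0.07, of complex I from -0.36 to -0.07, of complex II from -0.19 to -0.049, of complex III from -0.36 to -0.11, of complex IV from -0.41 to -0.070 and of complex V from -0.40 to -0.04. The values nearest 0 for all members came without empty vector replicate 3. Quantile normalization gave -0.15 with 71 of 86 members below 0. Naming by deposited symbols alone, and the block with libraries scaled to one median, were added after the data had been seen and gave no member call. Without counts, the depth behind each value is only estimated.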
